A study of Mus musculus with 4 samples.

Results

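Occupancy of the genome by NKX2.2 was examined at 10 genes that encode receptors for islet hormones, fatty acids and ghrelin: Gcgr, Glp1r, Gipr, Sstr1, Sstr2, Sstr3, Sstr5, Insr, Ffar1 and Ghsr. They were chosen by name, as receptors through which hormones and fatty acids tune glucagon and insulin release, out of 21887 protein-coding genes. NKX2.2, a homeodomain transcription factor of the endocrine pancreas, had been mapped by ChIP-seq, the sequencing of DNA enriched with an antibody to the factor, in wild-type (WT) alphaTC6 cells, a clonal mouse glucagonoma line used as a model of the pancreatic alpha cell. The series holds 2 NKX2.2 ChIP samples and 2 samples of input DNA, which was not enriched. Both groups are untreated cells of this single line, so there is no other genotype, treatment or time to compare. The processed data comprise 7384 summits in a single list, of which 7380 lie on assembled chromosomes. A summit marks the point of strongest enrichment within a peak, and its score is the authors' value, taken as −log10 of the q-value against input. Scores ran from 2.03 to 1648, with a median of 13.7 and quartiles of 7.98 and 27.7.

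The list has no column per sample, so no value below has a replicate error, the read depth is unknown, and no test between the groups could be made. A summit that is missing shows only that no peak was called there. The list also holds no expression values, so neither the alpha cell label nor the activity of any receptor gene was checked here.

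Islet cells respond to hormones and fatty acids through these receptors. Glucagon, GLP-1 and GIP bind related receptors that couple to the stimulatory G protein and raise cAMP, which promotes hormone release. Somatostatin from delta cells binds receptors that couple to inhibitory G proteins and lowers release, while insulin binds a receptor tyrosine kinase. The fatty acid receptor FFAR1 couples mainly to phospholipase C, and the ghrelin receptor GHSR is known in islets chiefly from delta cells.

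Summits lay in or within 10 kb of 4 of the 10 receptor genes (40.0%): Gcgr, Gipr, Sstr3 and Ffar1. Among all protein-coding genes the share was 25.8%. Widening the distance to 50 kb added Sstr2, Sstr5 and Ghsr, which made 7 of 10 (70.0%) against 43.8% of all genes. At 100 kb the number of receptor genes was still 7, against 55.3% of all genes. Glp1r, Sstr1 and Insr had no summit within 100 kb. Only Sstr3 had a summit inside the gene, 1 of 10 against 13.4% of all genes. With 10 genes, each gene moves these shares by 10 percentage points, and no test was made of the difference from other genes.

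**Figure D1:**
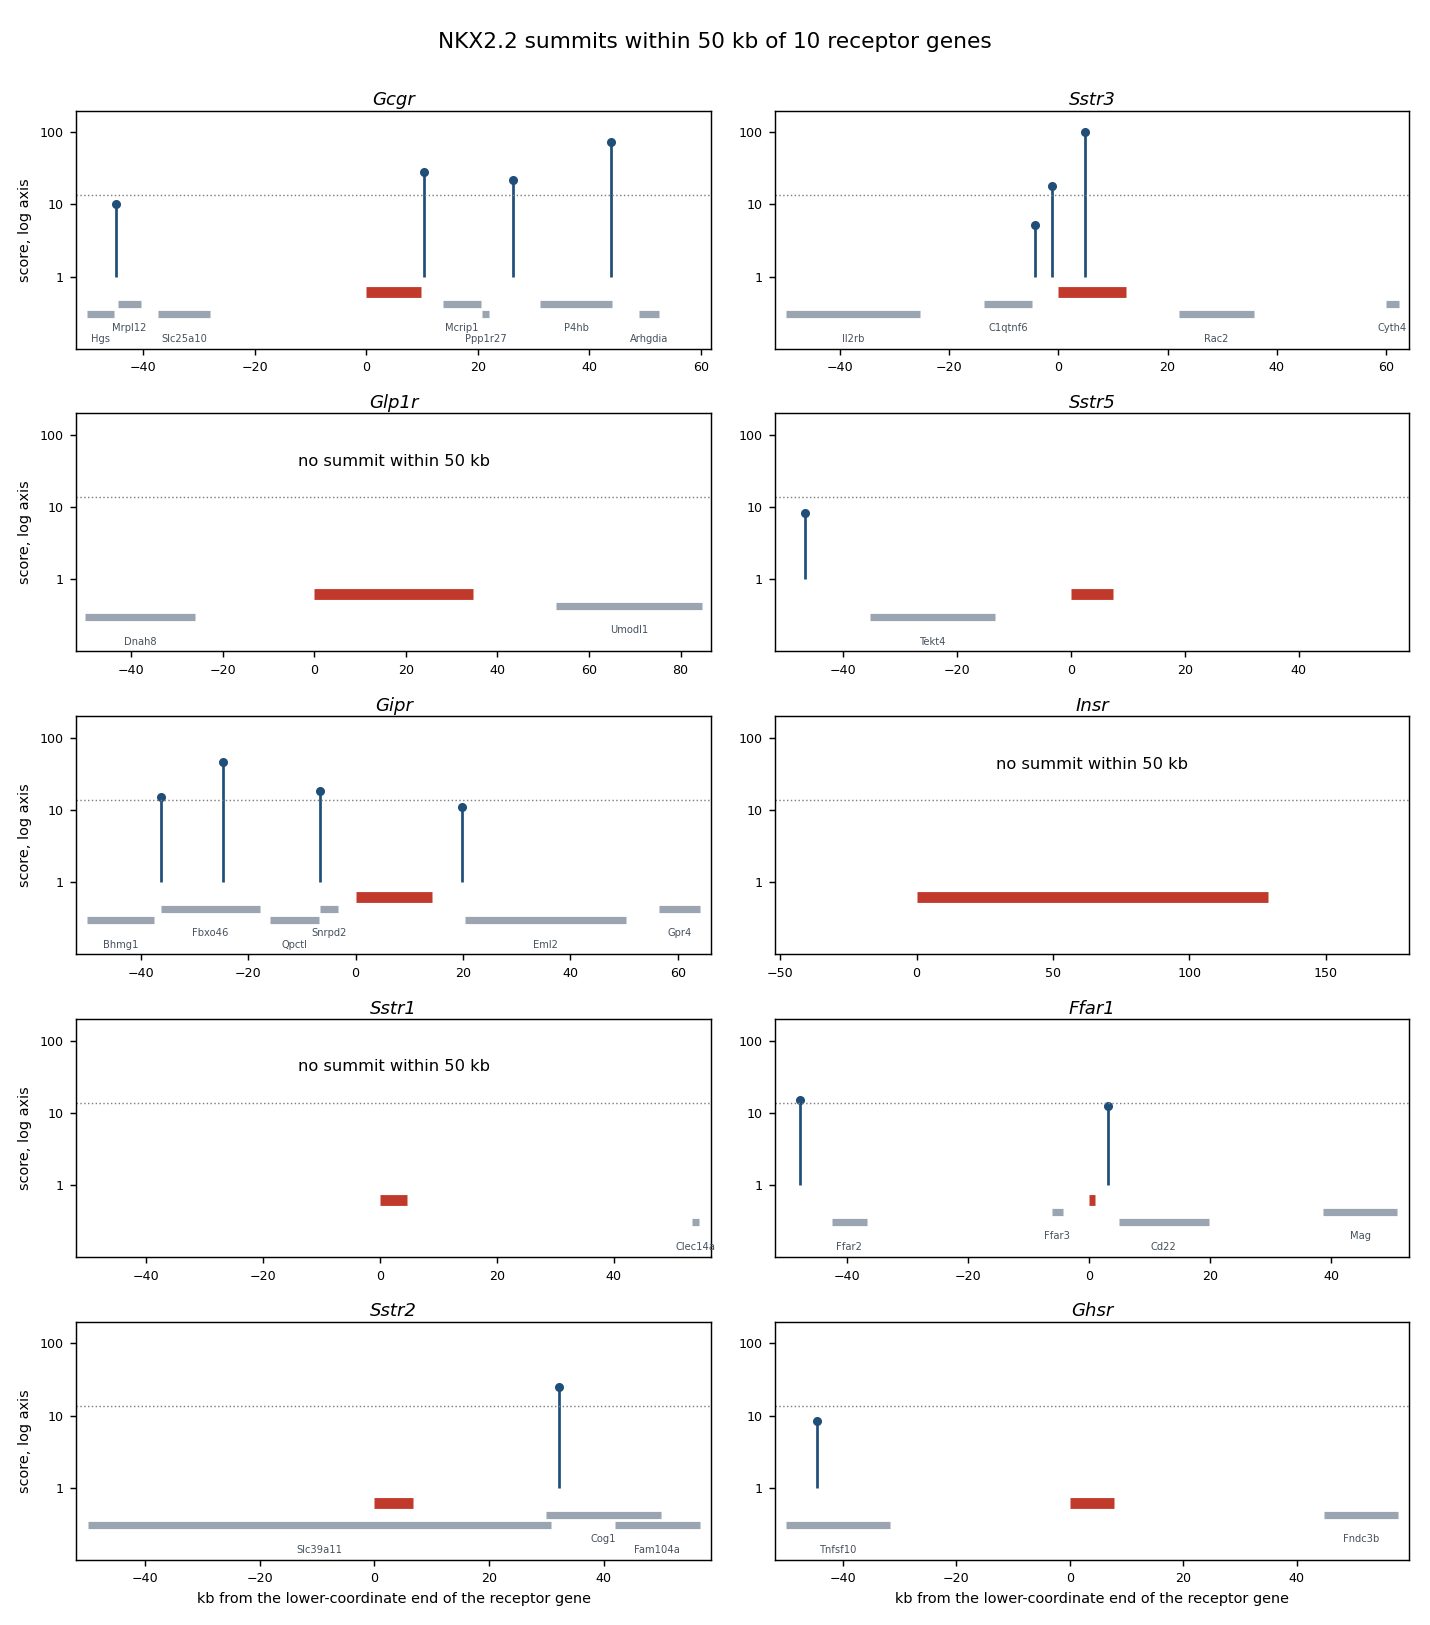
Summits within 50 kb of each receptor gene. The horizontal axis is the distance in kb from the lower-coordinate end of the receptor gene, the vertical axis is the score on a log scale, each stem is 1 summit, red bars are the receptor gene, grey bars are other protein-coding genes, and the dotted line is the median score of the list (13.7). Sstr3 carries the tallest stem, and the panels of Glp1r, Sstr1 and Insr hold none.

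The 7 summits within 10 kb had scores from 5.19 to 101.8, with a median of 18.2. The 16 summits within 50 kb had a median of 16.7, and 10 of them scored above the median of the list. Those above its upper quartile numbered 4, and they lay near Sstr3, Gcgr (with 2 summits) and Gipr. By the score of the highest summit within 50 kb, the order was Sstr3 (101.8), Gcgr (72.7), Gipr (46.7), Sstr2 (24.5), Ffar1 (15.2), Ghsr (8.37) and Sstr5 (8.30). The last 2 differ by less than 0.1, and no error is known by which to separate any neighbours in this order. The median of these highest scores was 24.5, against 19.6 for all protein-coding genes with a summit within 50 kb.

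Most of these summits lay closer to another gene than to the receptor gene. Of the 16 summits within 50 kb, 3 had the receptor gene as their nearest protein-coding gene, 2 at Sstr3 and 1 at Gcgr, and 13 had another. When a summit was counted only for its nearest gene, 2 of the 10 receptor genes (20%) kept a summit within 10 kb, against 19.2% of all genes. Within 50 kb the number was also 2, against 21.0% of all genes.

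**Figure D2:**
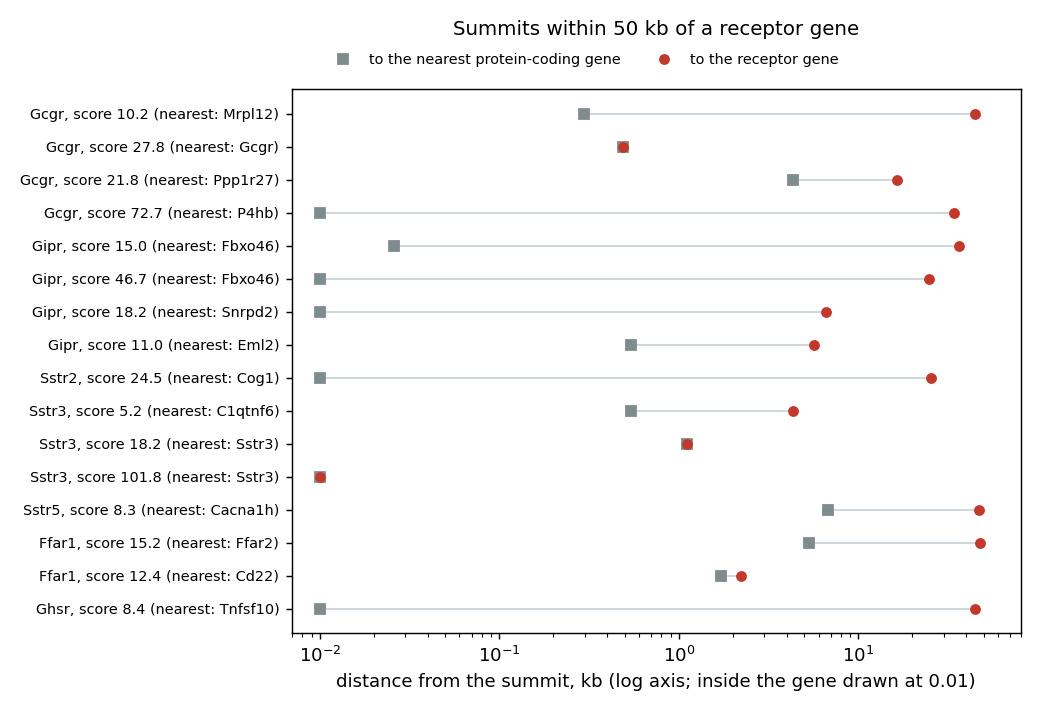
Distances of the 16 summits within 50 kb of a receptor gene. The horizontal axis is the distance in kb on a log scale, with summits inside a gene drawn at the left end; circles give the distance to the receptor gene and squares the distance to the nearest protein-coding gene, and each line of the vertical axis is 1 summit with its score. Circle and square coincide for 3 summits, 2 of Sstr3 and 1 of Gcgr.

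The DNA before the start sites of 3 receptor genes is shown first, as examples of different arrangements: Sstr3, with a summit close to a start site; Gcgr, with its nearest summit at the far end of the gene; and Sstr2, with a motif match and no summit within 25 kb. Each run is the 250 bases that end just before the start site, from RefSeq (GRCm38.p6), written 5′ to 3′ on the strand of the gene. Capitals mark matches, on either strand, to AAGTG, the core that NKX2 factors are known to bind, and to GGGNGNGGC, a GC-rich pattern of the kind that KLF factors bind. The runs are Sstr3 at its upstream start (chr15:78544346-78544595, minus strand), Sstr3 at its downstream start (chr15:78541407-78541656, minus strand), Sstr2 (chr11:113619077-113619326, plus strand) and Gcgr (chr11:120530477-120530726, plus strand).
Sstr3, upstream start: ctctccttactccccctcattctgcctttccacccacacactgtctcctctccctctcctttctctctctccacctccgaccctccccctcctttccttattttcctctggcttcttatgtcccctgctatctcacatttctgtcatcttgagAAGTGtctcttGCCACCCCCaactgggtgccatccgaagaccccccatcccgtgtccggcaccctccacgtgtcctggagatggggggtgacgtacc
Sstr3, downstream start: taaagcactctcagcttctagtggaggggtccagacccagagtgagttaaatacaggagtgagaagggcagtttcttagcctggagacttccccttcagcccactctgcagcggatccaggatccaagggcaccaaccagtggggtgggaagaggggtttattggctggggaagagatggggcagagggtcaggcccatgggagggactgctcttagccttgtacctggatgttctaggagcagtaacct
Sstr2: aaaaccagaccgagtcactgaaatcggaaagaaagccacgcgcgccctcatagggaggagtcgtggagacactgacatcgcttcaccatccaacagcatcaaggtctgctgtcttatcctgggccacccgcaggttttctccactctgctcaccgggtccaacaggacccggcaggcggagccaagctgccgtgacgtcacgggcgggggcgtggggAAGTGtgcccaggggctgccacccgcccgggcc
Gcgr: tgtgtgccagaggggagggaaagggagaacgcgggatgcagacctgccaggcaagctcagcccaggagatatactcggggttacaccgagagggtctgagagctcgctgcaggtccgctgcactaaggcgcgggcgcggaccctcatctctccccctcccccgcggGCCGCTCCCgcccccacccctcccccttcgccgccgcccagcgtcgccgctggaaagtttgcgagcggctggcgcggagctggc

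Start sites were matched by symbol for 6 of the 10 genes, Gcgr, Glp1r, Sstr2, Sstr3, Ffar1 and Ghsr, with 7 sites in all. The listed sites of Sstr3 and Gcgr lie inside the gene spans, whose 5′ ends are at 78549365 and 120529185. The DNA before those ends was not searched. AAGTG was found before 2 of the 7, the upstream start of Sstr3 and the start of Sstr2, against 40.7% of 32851 listed promoters of the same length. Its first base lay 97 bases before the Sstr3 start and 33 bases before the Sstr2 start. The longer form TNAAGTG, which contains the core, was found before none of the 7, against 10.1% of all promoters. With CACTT alone, which is AAGTG read on the other strand, none of the 7 had a match, against 22.8% of all promoters, since both matches lie on the strand of the gene. GGGNGNGGC was found before 3 of the 7, those of Gcgr, Glp1r and the upstream start of Sstr3, against 23.3% of all promoters. In Sstr3 the 2 matches lie close together without overlap, at 97 and 86 bases before the start. The GC content of the 7 runs was between 54.0% (Ghsr) and 73.2% (Glp1r), and the median of all promoters was 52.4%. No summit lay within any of the 7 runs. The matches describe these letters, and whether they were bound was not tested.

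Among the receptors of the glucagon family, Gcgr had the closest summit, Gipr had several near its neighbours, and Glp1r had none. Gcgr (gene ID 14527), the glucagon receptor, lies on chromosome 11 at 120529185 to 120538989 and spans 9.81 kb. Its nearest summit, at 120539475 with a score of 27.8 (rank 1828), lay 486 bp beyond the end of the gene and 8.75 kb past the start site. Gcgr runs on the plus strand and Mcrip1, which begins 3.90 kb further on, runs on the minus strand, so this summit lay between the 3′ ends of both genes. The other 3 summits within 50 kb of Gcgr lay near other genes. The highest, at 120573040 with a score of 72.7, was inside P4hb, which encodes a protein disulfide isomerase, at 213 bp past its start site. A summit of score 21.8 at 120555468 lay 4.34 kb before the start of Ppp1r27, and a summit of score 10.2 at 120484342 lay 295 bp before the start of Mrpl12, a mitochondrial ribosomal protein gene. Thus 1 of the 4 summits had Gcgr as the nearest gene, and that summit was not at the start of Gcgr.

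Gipr (gene ID 381853), the receptor for glucose-dependent insulinotropic polypeptide, lies on chromosome 7 at 19156063 to 19170248. It had 2 summits within 10 kb, one on each side. The summit at 19149467, with a score of 18.2 (rank 2841), lay 6.60 kb from Gipr and inside Snrpd2, a spliceosome protein gene, near its lower-coordinate end. The summit at 19175877, with a score of 10.96 (rank 4463), lay 5.63 kb from Gipr and 544 bp before a start site of Eml2, which encodes a microtubule-associated protein. Both were therefore closer to another gene. Within 50 kb, Fbxo46, an F-box protein gene, held 2 more: one of score 46.7 at 19131407, inside the gene, and one of score 15.0 at 19119833, 26 bp before its start site. All 4 summits thus had a gene other than Gipr as the nearest.

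Glp1r (gene ID 14652), the receptor for glucagon-like peptide 1, lies on chromosome 17 at 30901867 to 30936510. The nearest summit lay 189.5 kb away, at 31126037, inside the trefoil factor gene Tff3, with a score of 7.18 (rank 5832). Of all protein-coding genes, 66.2% had a nearer summit. The adjacent genes Dnah8 and Umodl1 had none within 10 kb either.

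The somatostatin receptor genes spanned the whole range, from the highest score of the 10 genes to the largest distance. Sstr3 (gene ID 20607) lies on chromosome 15 at 78537014 to 78549365, on the minus strand, and was the only receptor gene with a summit inside it. That summit, at 78541815, had a score of 101.8 and ranked 369 of 7384, at the 95.0th percentile of the list. It lay 409 bp before the downstream of the 2 listed start sites and 2.53 kb past the upstream one, so it fell between the 2 runs of Sstr3 sequence printed above, 159 bp beyond the upper end of the downstream run. A highest score within 10 kb at or above this value was reached by 1.60% of all protein-coding genes, and by 6.19% of those with a summit within 10 kb. Beyond the 3′ end of Sstr3 lay 2 more summits, at 78535910 with a score of 18.2, at 1.10 kb, and at 78532714 with a score of 5.19, at 4.30 kb. The last was nearer to C1qtnf6, at 544 bp. Its 3 summits within 10 kb are a number that 2.02% of all protein-coding genes reach or exceed. Sstr3 was picked out as the highest of the 10 genes, so these shares are descriptions and not tests.

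Sstr2 (gene ID 20606), on chromosome 11 at 113619327 to 113626028, lies within the span of Slc39a11, a zinc transporter gene of the opposite strand. Its nearest summit, at 113651551 with a score of 24.5 (rank 2112), lay 25.5 kb away inside Cog1, a gene of a Golgi tethering complex, and 1459 bp before a start site of Slc39a11. Just outside 50 kb lay a summit of score 3.28 at 50.6 kb and a summit of score 8.14 at 53.6 kb, the latter 97 bp past another start site of Slc39a11. None of the 3 was within 25 kb of the Sstr2 start, although the AAGTG match shown above lies there.

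Sstr5 (gene ID 20609), on chromosome 17 at 25489875 to 25497288, had a single summit within 100 kb. It lay 46.8 kb away at 25443124, with a score of 8.30 (rank 5458), and was nearer to Cacna1h, a voltage-gated calcium channel gene, at 6.79 kb. This distance is just inside 50 kb, as is that of Ghsr, so both genes count as having a summit only at that width. The adjacent genes Tekt4 and Sox8 had no summit within 10 kb.

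Sstr1 (gene ID 20605), on chromosome 12 at 58211421 to 58216037, was the farthest from any summit. The nearest lay 715 kb away at 57496652, with a score of 64.6, and 85.6% of protein-coding genes had a nearer one. This summit was 39.4 kb from Mipol1, its nearest protein-coding gene. On the other side the first summit lay 796 kb away, 82 bp before the start of Sec23a, with a score of 34.0. Sstr4, the remaining somatostatin receptor gene and not among the 10, had its nearest summit at 22.5 kb with a score of 9.61.

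Insr (gene ID 16337), the insulin receptor gene, lies on chromosome 8 at 3150922 to 3279649 and is the longest of the 10 at 128.7 kb. Its nearest summit lay 342 kb away at 3621414, 118 bp before the start of Xab2, with a score of 260.2 (rank 98). No summit and no protein-coding gene lay on the other side of Insr, and no other protein-coding gene lay within 50 kb. Of all protein-coding genes, 75.9% had a nearer summit.

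Ffar1 (gene ID 233081), a receptor for long-chain fatty acids, lies on chromosome 7 at 30860568 to 30861470, on the minus strand. A summit at 30863677, with a score of 12.4 (rank 4064), lay 2.21 kb before its start site. It was slightly nearer to Cd22, a B cell lectin gene, at 1.73 kb, but Cd22 runs on the same strand and its 3′ end faces the summit. The nearest listed start site was that of Ffar1. The short-chain fatty acid receptor genes Ffar3 and Ffar2 follow on the same chromosome, and a summit of score 15.2 at 30812754 lay 5.28 kb from Ffar2 and 47.8 kb from Ffar1.

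Ghsr (gene ID 208188), the ghrelin receptor gene, lies on chromosome 3 at 27371351 to 27379235. Its only summit within 100 kb, at 27326776 with a score of 8.37 (rank 5398), lay 44.6 kb before its start site and inside Tnfsf10, which encodes a death receptor ligand. Fndc3b, the next gene on the other side, had 3 summits within 10 kb, all over 100 kb from Ghsr.

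**Figure D3:**
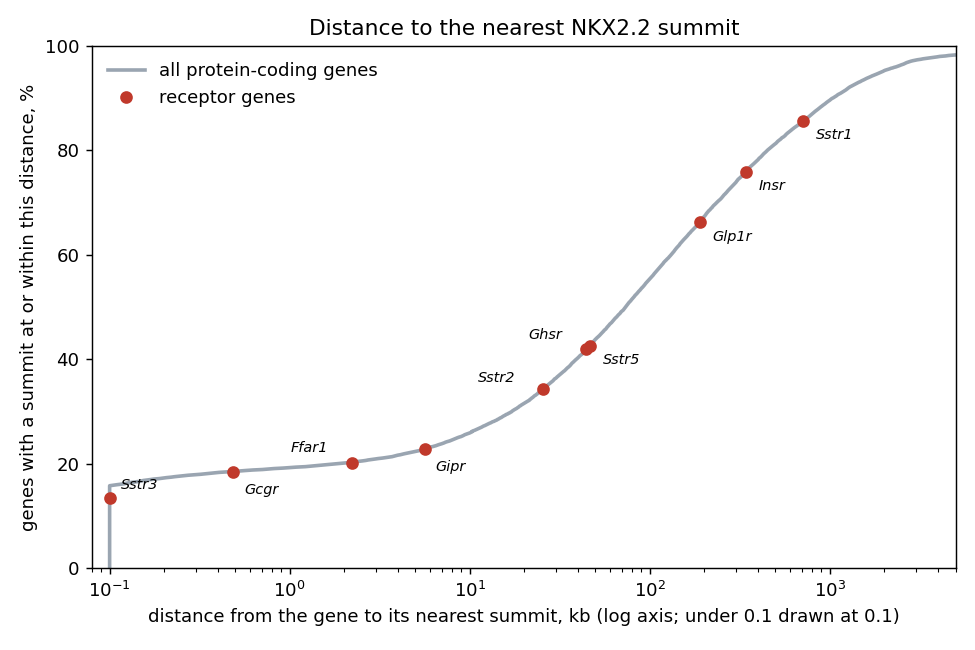
Distance from each gene to its nearest summit. The horizontal axis is the distance in kb on a log scale, the vertical axis is the percentage of protein-coding genes with a summit at or within that distance, the line is all 21887 protein-coding genes, and the points are the 10 receptor genes, placed at their own distance. Sstr3, Gcgr, Ffar1 and Gipr lie below 10 kb, and Glp1r, Insr and Sstr1 beyond 100 kb.

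The median distance to the nearest summit was 35.0 kb for the 10 genes and 73.7 kb for all protein-coding genes. Some of the summits within 50 kb lay at start sites of other genes. Of the 16 summits within 50 kb, 6 (37.5%) lay within 1 kb of a listed start site, against 29.8% of the 7168 summits on chromosomes with listed sites. Of the 6, the site belonged to Sstr3 in 1 case and to another gene in 5. These 5 were all near Gcgr or Gipr, and of them only the 2 nearest to Gipr lay within 10 kb of the receptor gene.

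Over all genes, the crowding of genes went along with summits within 10 kb and within 50 kb, and gene length with summits within 10 kb. Within 50 kb the share was lower in genes under 5 kb and differed little among the longer classes. The receptor genes were therefore set beside genes of like length and surroundings. Of genes under 5 kb, which include Sstr1 and Ffar1, 13.2% had a summit within 10 kb and 28.1% within 50 kb. Ffar1 had a summit at both distances and Sstr1 at neither. Of genes of 5 to 20 kb, which include Gcgr, Gipr, Sstr2, Sstr3, Sstr5 and Ghsr, the shares were 26.0% and 49.0%. Gcgr, Gipr and Sstr3 had a summit within 10 kb, and Sstr2, Sstr5 and Ghsr only within 50 kb. The shares were 27.2% and 46.2% for 20 to 50 kb, the class of Glp1r, and 32.2% and 48.6% for 50 to 100 kb, which holds none of the 10. Of genes over 100 kb, the class of Insr, 41.8% had a summit within 10 kb and 51.6% within 50 kb. Glp1r and Insr had none at these distances.

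Crowding was counted as the number of other protein-coding genes within 50 kb. Genes with 0 such neighbours, among them Insr, had a summit within 50 kb in 21.6% of cases. Genes with 1 to 2 neighbours, among them Glp1r, Sstr1, Sstr5 and Ghsr, had one in 36.9%. Genes with 3 to 5, among them Sstr2, Sstr3 and Ffar1, had one in 49.2%, and genes with 6 or more, among them Gcgr and Gipr, in 65.4%. Within 10 kb the shares were 16.7%, 23.0%, 27.7% and 35.7% in the same order. All 3 receptor genes without a summit within 50 kb had at most 2 neighbours, and both receptor genes with 4 summits within that distance had at least 6. Sstr5 and Ghsr also had at most 2 neighbours, yet each had 1 summit within 50 kb. Sstr3, with the highest score and 3 summits, had 4 neighbours. The part of length or crowding in the receptor genes' values was not tested.

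Other islet receptors and the signalling partners and ligands of the receptors were counted from 6 lists, of which 107 of 108 genes were found by symbol. Of these, 51 (47.7%) had a summit within 10 kb, with a median highest score of 18.7, against 25.8% of all genes and a median of 16.0. The median length was 49.3 kb against 17.2 kb for all genes, and length went along with summits as given above. These counts were set against no test, and nothing particular to the lists follows from them. The nearest gene of each summit was not determined for the lists. A summit outside a named gene may therefore lie closer to another gene.

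Among 34 other islet receptor genes, 13 had a summit within 10 kb (38.2%, against 25.8% of all genes). Their median length is 18.2 kb, against 17.2 kb for all genes. Of all genes in the length class that holds this median, 26.0% had a summit within 10 kb. Among these 34 genes, the highest summit was outside Adcyap1r1, the receptor for the peptide PACAP, with a score of 287.2. It lay at position 55444532 of chromosome 6, 6.97 kb from the gene. Oxtr, the oxytocin receptor gene, and Insrr, the insulin receptor-related gene, had summits inside the gene with scores of 50.7 and 40.0. Ffar2 and Ffar3 counted through the same 2 summits that lie within 50 kb of Ffar1.

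Among 13 genes for alpha subunits of G proteins, 6 had a summit within 10 kb (46.2%, against 25.8% of all genes). Gnaz, an inhibitory alpha subunit, had one inside the gene with a score of 120.1, Gna12 one with a score of 36.1, and Gnao1 one with a score of 16.8. Of 23 genes of the cAMP pathway, 10 had a summit (43.5%). The median lengths are 62.4 kb for the G protein list and 71.8 kb for the cAMP list. Of all genes of 50 to 100 kb, 32.2% had a summit within 10 kb. Rapgef4, a cAMP-regulated exchange factor that acts in insulin release, had one inside the gene with a score of 88.2. Prkaca, a catalytic subunit of protein kinase A, had one at 8.42 kb with a score of 34.7, and the regulatory subunit gene Prkar2a had one at 5.48 kb with a score of 21.1.

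Of 14 genes of phospholipase C signalling and receptor desensitisation, 9 had a summit within 10 kb (64.3%, against 25.8% of all genes). The highest were at Plcb2, with a score of 228.7 at 8.14 kb from the gene, and inside the receptor kinase genes Grk3 (110.6) and Grk2 (43.7). Of 16 genes downstream of the insulin receptor, 12 had one (75%), also against 25.8% of all genes. Akt1, a kinase activated by insulin, had a summit of score 117.0 at 9377 bp, and a lower score inside the gene. The adaptor gene Shc1 had a summit of score 39.8 at 245 bp, and also a lower score inside the gene. The phosphatase gene Ptpn1 had one of score 36.8 inside the gene. Irs2, an insulin receptor substrate gene named after its values were seen, had 6 summits within 10 kb, the highest of score 36.5. The median gene lengths are 83.3 kb in the phospholipase C list and 68.8 kb in the insulin list. Of all genes of 50 to 100 kb, 32.2% had a summit within 10 kb.

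Of the 7 ligand genes, Gcg alone had a summit within 10 kb (14.3%, against 25.8% of all genes). It lay 139 bp from the gene, with a score of 6.78. These genes are short, with a median length of 1.77 kb, and 13.2% of all genes under 5 kb had one. Within 50 kb, 3 of the 7 (42.9%) had a summit, against 43.8% of all genes. Gcg encodes both glucagon and GLP-1, and of their receptor genes Gcgr had a summit within 10 kb and Glp1r had none within 100 kb. Sst and Cort, which encode ligands of the somatostatin receptors, had none within 10 kb, nor had Sstr1, Sstr2 and Sstr5, while Sstr3 had 3. Gip had none within 10 kb and Gipr had 2, both nearer to another gene. Within 50 kb, Gip had 2 and Gipr had 4. Ins1, Ins2 and Insr were all far from a summit, with distances of 773.7, 217.9 and 342 kb. Ghrl and Ghsr had their nearest summits at 59.1 and 44.6 kb.

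**Figure D4:**
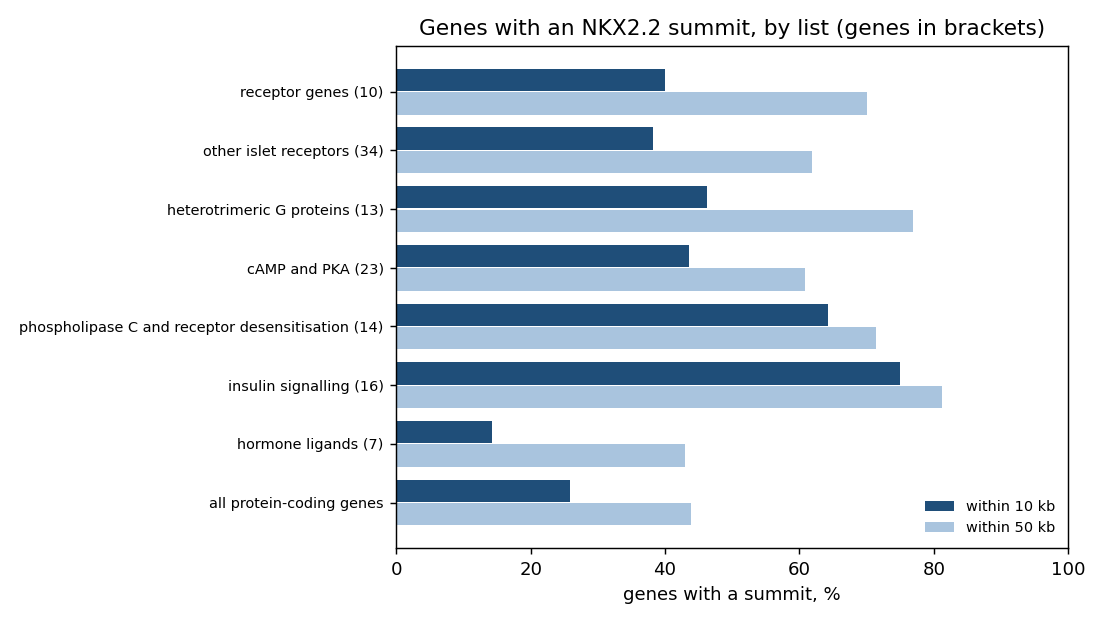
Share of genes with a summit, by list. The horizontal axis is the percentage of genes with a summit within 10 kb (dark bars) or 50 kb (light bars), and the rows are the 10 receptor genes, the 6 lists with their number of genes, and all protein-coding genes. The receptor genes stand at 40.0% and 70.0%, all genes at 25.8% and 43.8%, and the bars have no error because there is 1 list of summits.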

How the data were processed

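NKX2.2 ChIP and input DNA of alphaTC6 cells were sequenced, with 2 biological replicates each per the labels' design text, and samples were grouped by title. The submitters' processing notes name FastQC, Bowtie2, MACS2 and the build mm10, without versions. The deposited file is 1 summit list without a header, with 5 columns, and peak names that carry the word nomodel. Its deposited scores were taken as −log10 q-values of ChIP against input, as MACS2 writes them. Pooling of replicates and handling of duplicates are not given in the sources used here.

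Summit positions were counted from 1 and compared with RefSeq genes of GRCm38.p6, whose chromosomes are those of mm10, on the autosomes, X and Y. Distances were taken from the gene's outer ends and are 0 inside it. Start sites and promoter sequences came from a RefSeq table of 32851 entries, which is not complete and holds none on chromosome 18. Summits tied between genes counted for each. Distance functions were tested on simulated summits. Python 3.11.15, numpy 2.4.6, pandas 2.3.3 and matplotlib 3.10.9 were used.

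The members and the 6 gene lists were chosen with earlier results of these data known, so no p-values were computed. The genes named were the 10 members, the genes next to them or to their summits, and the 3 genes per list with the highest score within 10 kb. Irs2, Sstr4 and the ligand genes other than Gcg were named outside this rule, after their values were seen. The alternatives were distances, score minimums of 5, 10 and 20, merging of summits within 500 bp, assignment to the nearest gene, and the motif's form and strand.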

Additional observations from a re-analysis of the deposited data

How the results depend on the processing

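No paired analysis was possible because summits are given once for the series, without replicate columns, which also prevented leaving out replicates. The 4 receptor genes with a summit within 10 kb became 1 in the gene body alone, 7 within 50 kb and 7 within 100 kb. They became 2 with nearest-gene assignment (Gcgr and Sstr3) and 2 at a score of at least 20, where 10.7% of all genes had one. There were 4 at a minimum of 5 (23.7% of all genes), at a minimum of 10 (18.2%) and with summits within 500 bp merged (25.8%). The 7 receptor genes within 50 kb became 2 with nearest-gene assignment and 4 at a score of at least 20, against 21.6% of all genes; at a minimum of 10 there were 5, without Sstr5 and Ghsr, against 33.7%. Beside the lists' 51 genes with a summit within 10 kb, 23 of the 107 had one at a score of at least 20 (21.5%, against 10.7% of all genes) and 33 in the gene body (30.8%, against 13.4%). Of 44 recomputed counts of summits at single receptor genes that were above 0 to begin with, 26 moved by at most 1.5 times and 18 by more, 8 of them at a score of at least 20 and 8 with nearest-gene assignment. The unknown read depth limits what a missing summit says.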
